A study of Mus musculus with 8 samples.

Results

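The genes described here encode the subunits of oxidative phosphorylation, the machinery of the inner mitochondrial membrane that turns electrons from nutrients into ATP. They were chosen by symbol, annotation and mean level from the table of colonic gene expression. Of the 26008 genes in the table, 113 had a symbol beginning like a subunit of NADH dehydrogenase, succinate dehydrogenase, cytochrome bc1, cytochrome c oxidase or ATP synthase. Of these 113, 99 were protein coding, and 98 of the 99 had a mean of at least 10 normalized counts over the 8 mice. Only the muscle isoform gene Cox6a2 fell under that level, and 13 pseudogenes and 1 long non-coding RNA with such names were left out. The 98 genes comprised 85 nuclear and 13 mitochondrially encoded ones, with 45 in complex I, 4 in complex II, 10 in complex III, 19 in complex IV and 20 in complex V.

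Complex I (NADH dehydrogenase) and complex II (succinate dehydrogenase, also an enzyme of the citric acid cycle) pass electrons to ubiquinone. Complex III hands them to cytochrome c, and complex IV transfers them to oxygen. Complexes I, III and IV pump protons, and complex V (ATP synthase) lets them flow back to make ATP. The mitochondrial genome encodes a few core subunits of complexes I, III, IV and V, whereas complex II is wholly nuclear encoded. In the colon, surface epithelial cells oxidise butyrate from the microbiota and depend strongly on this machinery.

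RNA from colonic biopsies of 8 male chimeric mice was sequenced, 1 library per mouse. All recipients were wild-type C57BL/6JRj mice that were lethally irradiated and engrafted at 7 weeks of age, and that were examined 18 to 21 weeks later. In the penk-/- group (4 mice) the bone marrow came from mice with a deletion of preproenkephalin, the precursor of enkephalins (strain B6.129-Penk-rstm1Pig/J). In the penk+/+ group (4 mice) it came from wild-type mice. The deletion is therefore limited to cells derived from the bone marrow, while epithelium, muscle and enteric neurons carry the gene in both groups. How much of the marrow came from the donor was not measured in these 8 mice. Each library held 33.1 M to 50.7 M counted reads (median 38.5 M).

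Penk itself, the label check, had 453, 512, 616 and 531 normalized counts in penk-/- mice and 473, 496, 560 and 636 in penk+/+ mice. The groups overlapped (528 ± 67.5 and 541 ± 73.2, mean ± SD, n = 4 each), so these values do not check the genotype of the engrafted cells. Markers of epithelium and smooth muscle were abundant: the epithelial keratin Krt8 had a mean of 149372 normalized counts and the smooth muscle myosin Myh11 78885. A pair of libraries stood apart for another tissue. Pbsn (probasin, a secreted protein of the prostate) had 105658 normalized counts in penk-/- replicate 3 and 111024 in penk+/+ replicate 4. It had 13425 in penk+/+ replicate 1, 7638 and 4803 in penk-/- replicates 2 and 4, and 2398 in penk+/+ replicate 2. Only penk-/- replicate 1 and penk+/+ replicate 3 were at 0. Of the 10 genes listed for prostate and seminal vesicle, 6 were in the table and tested, with 3 higher and 3 lower in penk-/- chimeras. The summaries of the nuclear genes and of each complex are therefore also given without penk-/- replicate 3 and penk+/+ replicate 4, called rich in Pbsn below. Libraries with less Pbsn stay in.

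The mitochondrially encoded genes fell into 2 groups by sequence. In the reference genome GRCm39, the stretch chrM:6394-11042 has a copy on the minus strand of chromosome 1, at chr1:24650616-24655265, which matches it at 4648 of 4650 aligned bases. Between the copy and the mitochondrial genome there is 1 substitution, T9461C, counted from base 1 of the mitochondrial reference, with the mitochondrial base first, and 1 insertion. Of the 13 genes, mt-Co2, mt-Atp8, mt-Atp6, mt-Co3, mt-Nd3 and mt-Nd4l lie wholly inside this stretch. In 5 of these 6 every window of 100 bases has an exact copy in the nuclear genome, and in mt-Nd3 98.8% of the windows do. mt-Co1 lies inside it with 31% of its bases and mt-Nd4 with 63.6%. The other 5 genes lie outside. The sequences of mt-Atp8 and of the only substituted base are shown because they mark what a read can and cannot tell apart. The coding strand of mt-Atp8 at chrM:7766-7969 is identical, over its 204 bases, to the minus strand of chr1:24653690-24653893. Capitals mark the 43 bases that mt-Atp8 shares with the start of mt-Atp6.
mt-Atp8: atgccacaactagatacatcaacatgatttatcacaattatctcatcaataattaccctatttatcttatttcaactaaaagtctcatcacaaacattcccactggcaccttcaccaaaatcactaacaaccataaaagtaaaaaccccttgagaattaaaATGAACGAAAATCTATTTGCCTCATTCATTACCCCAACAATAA
The substituted base, in capitals below, lies in mt-Nd3, with 20 bases on either side, at chrM:9441-9481 and on the minus strand of chr1:24652178-24652218.
mitochondrial genome: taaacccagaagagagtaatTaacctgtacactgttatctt
chromosome 1 copy: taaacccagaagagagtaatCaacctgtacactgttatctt

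The 6 genes inside the copied stretch had far lower levels than the 7 others. Per kilobase of gene, the mean level ranged from 402 (mt-Nd4l) to 3859 normalized counts (mt-Co2) inside it, and from 37393 (mt-Nd6) to 620562 (mt-Co1) among the others, so that the lowest of the others was 9.69 times the highest inside. mt-Co1, the catalytic subunit of cytochrome c oxidase, held 55.1% of all normalized counts of the 13 genes, followed by mt-Cytb, the cytochrome b of complex III, with 15.1%, and mt-Nd1 with 10.3%. mt-Co2, mt-Co3 and mt-Atp6 held 0.152%, 0.131% and 0.0703%. Reads were also assigned to pseudogenes annotated in the copy on chromosome 1. Atp6-ps had a mean of 4372 normalized counts against 1224 for mt-Atp6, Gm28661 had 2750 and Gm28437 2417. Which of the identical places a read was assigned to is not given in the sources used here, and its part in these levels was not tested.

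**Figure D1:**
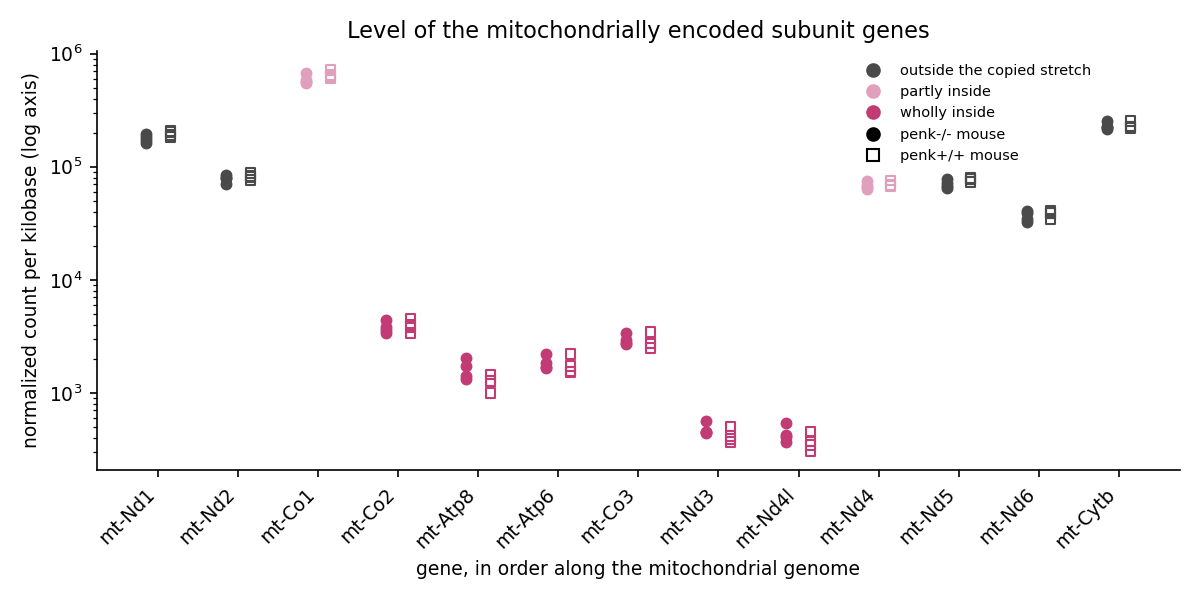
Level of the 13 mitochondrially encoded genes in normalized counts per kilobase on a log axis, in their order along the mitochondrial genome, with 1 point per mouse (filled circles penk-/-, open squares penk+/+). All 6 genes wholly inside the stretch copied on chromosome 1 lie under the 7 others, in every mouse.

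Among the 98 subunit genes, 74 (75.5%) had a lower mean log2 value in penk-/- than in penk+/+ mice, against 48.9% of all 19127 genes tested. The count was 50 when each library was scaled to its total (35% of all genes), 59 without the libraries rich in Pbsn (48.9%), and from 58 without penk+/+ replicate 1 (51.2%) to 83 without penk+/+ replicate 3 (49.6%) with a library left out. The differences were small. The median log2 fold change was -0.06 over the 98 genes and 0.01 over all genes tested, and single genes ran from -0.45 (Cox5a) to 0.37 (mt-Atp8). No subunit gene had an adjusted p below 0.05 (limma on log2(normalized count + 1), Benjamini-Hochberg over all genes tested, two-sided; the smallest was 0.408). Nor did any other gene, so that the background is 0%. On the recovered reads, edgeR called 0 of the 98 genes and 0 of all genes, and DESeq2 called 0 of the 98 and 1.25% of the genes it tested. At an unadjusted p below 0.05, 4 subunit genes were lower (Ndufs1, Uqcrfs1, Cox8a and Cox5a) and 1 was higher (mt-Atp8). Over all genes tested 5.33% were lower and 4.3% higher at that level, so neither count exceeds the background. The count of lower genes depended on the fit and on single mice. It was 8 with DESeq2 (5.74% of all genes), 15 with the replicate number as a block (8.28%) and 15 without penk-/- replicate 1 (7.09%). It was 1 without penk-/- replicate 2 (4.35%) and 1 without penk+/+ replicate 1 (3.8%). It was 2 without penk-/- replicate 3 (4.15%), without penk+/+ replicate 2 (4.19%), without the trend (5.18%), without the libraries rich in Pbsn (4.7%) and with library totals (3.31%). The groups did not overlap in 4 of the 98 genes, all of them lower in penk-/- chimeras, against 2.74% of all genes for lower and 2.89% for higher.

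Mice of the same group differed little in these genes. The median within-group SD was 0.11 (log2) for the 98 genes and 0.20 for all genes tested, and the median standard error of the fold change was 0.08 and 0.14. This low spread is not particular to the subunit genes. Among the lists given below, the median SD was 0.07 for the citric acid cycle and the cytosolic ribosome. It was 0.09 for the mitochondrial ribosome and 0.10 for glycolysis, but 0.15 for nuclear regulators, 0.18 for epithelial and 0.29 for smooth muscle markers. Most nuclear genes were highest in the same mouse, and most were lowest in the same other mouse. penk+/+ replicate 1 had the highest value in 50 of the 85 nuclear genes and penk-/- replicate 3 the lowest in 46. Over all genes tested these mice were highest and lowest in 16.6% and 20.3%. Because the nuclear genes moved together from mouse to mouse, the 74 genes are not 74 independent observations.

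**Figure D2:**
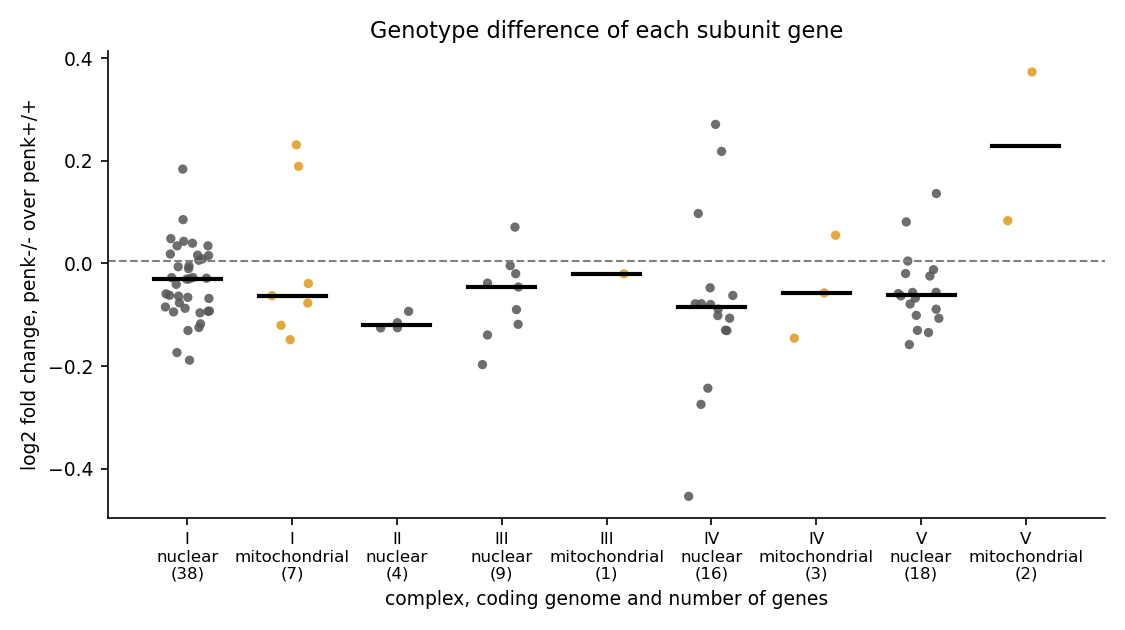
Log2 fold change (penk-/- over penk+/+) of each of the 98 genes, by complex and coding genome, with the number of genes in brackets. Black bars are medians and the dashed line is the median of all genes tested (0.01). The nuclear medians of all 5 complexes lie below 0 here, but those of complexes I and III lie above 0 (0.03 and 0.01) when each library is scaled to its total, where the median of all genes is 0.07.

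The nuclear genes as a whole took 1.21%, 1.20%, 1.14% and 1.18% of the normalized counts in penk-/- mice, against 1.23%, 1.23%, 1.20% and 1.16% in penk+/+ mice. The mitochondrially encoded genes took 4.68%, 4.38%, 4.31% and 4.12%, and 4.71%, 4.60%, 4.48% and 4.35%. Both ranges overlapped. The mitochondrial sum was 3.70 ± 0.16 times the nuclear sum in penk-/- mice and 3.76 ± 0.05 times in penk+/+ mice (SD, n = 4 each), and it is mt-Co1 that sets most of this ratio.

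Gene by gene, the median log2 fold change was -0.06 for the 85 nuclear genes, of which 66 were lower, and -0.04 for the 13 mitochondrially encoded genes, of which 8 were lower. The nuclear median was -0.02 (52 lower) without penk+/+ replicate 1, -0.03 (57 lower) without penk-/- replicate 3, -0.09 (70 lower) without penk-/- replicate 1 and -0.10 (74 lower) without penk+/+ replicate 3. The difference of these medians was 0.02. It was 0.09 after quantile normalization, -0.00 without the libraries rich in Pbsn, and 0.00 (without penk-/- replicate 3) to 0.05 (without penk-/- replicate 4) with a library left out. Of the mitochondrially encoded genes, all 7 that do not lie wholly in the copied stretch were lower in penk-/- chimeras (median -0.08, range -0.15 to -0.02), and 5 of the 6 inside it were higher (median 0.14, range -0.06 to 0.37). That division was made after the values were seen, and it depended on the mice and the scaling. Without penk-/- replicate 1, 3 of the 6 genes inside the stretch were higher (median 0.05). After quantile normalization 2 of the 7 others were lower (median 0.02), and without penk-/- replicate 4 the median of the 7 was -0.02, with 6 lower. The median of all 13 genes changed sign as well. It was 0.06 after quantile normalization, and 0.01, with 6 of 13 lower, without penk+/+ replicate 1. Scaled to the library totals, which raised the median of all genes from 0.01 to 0.07, it was 0.02, below that of all genes as before.

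mt-Co1 took 2.58%, 2.36%, 2.30% and 2.28% of the normalized counts in penk-/- mice, against 2.66%, 2.54%, 2.48% and 2.42% in penk+/+ mice, and the log2 fold change was -0.08 when each library was scaled to its total, as these shares are. On the normalized counts used in the other comparisons it was -0.15 (SE 0.18). mt-Nd1, a core subunit of complex I, had 184949, 175094, 163248 and 155596 normalized counts, and 198258, 182906, 175857 and 194763 (-0.15, SE 0.11). In both genes the highest penk-/- mouse, replicate 1, lay within the penk+/+ range. mt-Cytb had a log2 fold change of -0.02 (SE 0.12), mt-Nd5 of -0.12 (SE 0.10), mt-Nd2 of -0.06 (SE 0.09), mt-Nd4 of -0.04 (SE 0.09) and mt-Nd6, the only one encoded on the light strand, of -0.08 (SE 0.09).

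mt-Atp8, a small subunit of the membrane part of ATP synthase, was the gene with an unadjusted p below 0.05 in the other direction. It had 419, 355, 290 and 268 normalized counts in penk-/- mice and 297, 259, 204 and 261 in penk+/+ mice, and the groups overlapped. The log2 fold change was 0.37 (SE 0.16, limma adjusted p = 0.513), and the unadjusted p rose to 0.135 at most when a library was left out. mt-Nd4l (0.23, SE 0.17), mt-Nd3 (0.19, SE 0.14), mt-Atp6 (0.08, SE 0.13) and mt-Co3 (0.05, SE 0.11) were also higher on average, and mt-Co2 was lower (-0.06, SE 0.11). As shown above, the whole of mt-Atp8 has an identical copy on chromosome 1, and its last bases are also those of mt-Atp6. The pseudogenes annotated in that copy had log2 fold changes from -0.04 (Gm28439, SE 0.12) to 0.25 (Gm10222, SE 0.21). Atp6-ps had -0.02 (SE 0.09), Gm28661 0.03 (SE 0.13) and Gm28437 0.03 (SE 0.10). How far the fold changes of the genes inside the stretch depend on where identical reads were assigned was not tested.

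**Figure D3:**
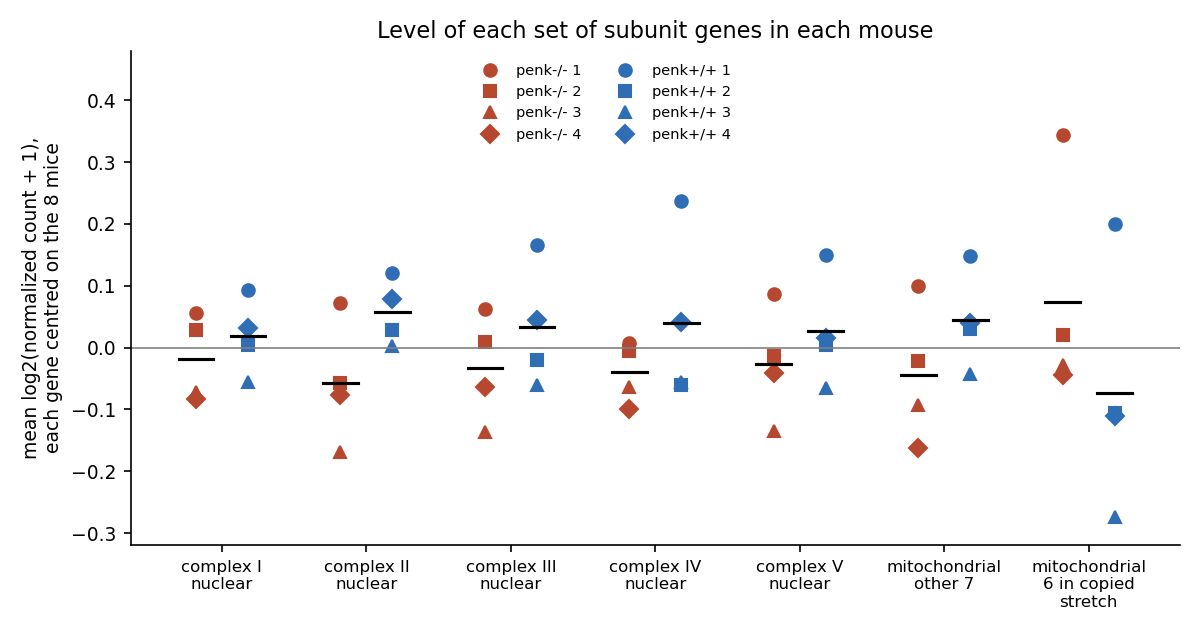
Mean over the genes of each set of log2(normalized count + 1), each gene centred on its mean over the 8 mice, with 1 symbol per mouse and black bars at the group means. In all 7 sets the penk-/- and penk+/+ mice overlap, and penk+/+ replicate 1 is the highest mouse in 6 of them.

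In complex I, 26 of the 38 nuclear genes were lower (median -0.03). This was 20 of 38 (median -0.01) without the libraries rich in Pbsn, and 16 of 38 (median 0.03, against 0.07 for all genes) when each library was scaled to its total. With a library left out, the median ran from -0.07 (without penk-/- replicate 1) to -0.01 (without penk-/- replicate 4). Of the 7 nuclear core subunits, which carry the flavin and the iron-sulfur clusters, 6 were lower (median -0.06), and of the 31 accessory subunits 20 were (median -0.03). Ndufs1, the largest core subunit (chr1:63182058-63216236, minus strand, GRCm39), had 5589, 5474, 5028 and 5052 normalized counts in penk-/- mice and 6178, 5979, 5820 and 5854 in penk+/+ mice. Every penk-/- mouse lay below every penk+/+ mouse (5286 ± 288 and 5958 ± 162, SD, n = 4 each). Its log2 fold change was -0.17 (SE 0.06, limma adjusted p = 0.408). The unadjusted p was below 0.05 with any library left out, but not when each library was scaled to its total (log2 fold change -0.11, with the median of all genes at 0.07). Eef1b2, which overlaps Ndufs1 on the opposite strand, had a fold change of 0.01.

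Ndufa9, an accessory subunit, showed the same order with 3207, 3267, 3109 and 3192 normalized counts against 3688, 3320, 3485 and 3378. The gap between the groups was small and its adjusted p was 0.525. Ndufa1, the nuclear gene of the complex with the highest level per kilobase of annotated exon (3919), had a fold change of -0.07 (SE 0.11). In the other direction, Ndufa4 had 0.09 (SE 0.05) and Ndufb2 0.18 (SE 0.13). Ndufa4 is named after complex I but is now counted as a subunit of complex IV. Genes were assigned to the complexes by symbol, so Ndufa4 and Ndufa4l2 stay among the complex I accessory subunits in the counts given here.

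Complex II was the one complex in which all genes were lower, 4 of 4, with a median of -0.12. They rank the mice much alike and are not 4 independent observations. Sdha, the flavoprotein that oxidises succinate, had 18891, 18304, 16621 and 17083 normalized counts in penk-/- mice and 19830, 18809, 18700 and 19394 in penk+/+ mice. Only penk-/- replicate 1 reached the penk+/+ range (17725 ± 1053 and 19183 ± 528, SD, n = 4 each; log2 fold change -0.12, SE 0.06, adjusted p = 0.605). The membrane anchor Sdhd, the highest per kilobase, had 11532, 9937, 9445 and 10782 against 11902, 11452, 10747 and 11291 (-0.13, SE 0.07). Sdhb, the iron-sulfur subunit, had a fold change of -0.13 (SE 0.08) and Sdhc of -0.09 (SE 0.06). All 4 stayed below 0 without the libraries rich in Pbsn (median -0.08) and when each library was scaled to its total (median -0.06, against 0.07 for all genes). With a library left out the median ran from -0.16 to -0.08.

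In complex III, 8 of the 9 nuclear genes were lower (median -0.05). Without the libraries rich in Pbsn 4 of 9 were lower, and the median was 0.01. Under scaling to the library total 4 of 9 were lower too (median 0.01), but the median of all genes was then 0.07. With a library left out the median ran from -0.10 (without penk+/+ replicate 3) to -0.01 (without penk-/- replicate 3). Uqcrfs1, the Rieske iron-sulfur protein that receives electrons from ubiquinol (chr13:30723448-30729345, minus strand), had 6685, 5971, 5932 and 6436 normalized counts in penk-/- mice and 7923, 6952, 6658 and 7182 in penk+/+ mice. The groups overlapped at 1 pair of mice only (6256 ± 366 and 7179 ± 541; log2 fold change -0.20, SE 0.07, limma adjusted p = 0.441). Uqcrc2, a core protein (chr7:120233976-120260035, plus strand), had 12151, 11820, 10549 and 11366 against 13276, 12332, 12585 and 12305, with no overlap (-0.14, SE 0.06, adjusted p = 0.521). Uqcrh, the hinge protein, had -0.12 (SE 0.08) and Uqcr11 0.07 (SE 0.09).

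In complex IV, 13 of the 16 nuclear genes were lower (median -0.08), and these included Cox5a, the largest negative fold change of the 98 genes. Without the libraries rich in Pbsn 11 of 16 were lower (median -0.03), and under scaling to the library total 12 (median -0.02, against 0.07 for all genes). With a library left out the median ran from -0.12 (without penk-/- replicate 1) to -0.04 (without penk-/- replicate 3, and with 10 of 16 lower without penk+/+ replicate 1). Cox5a, a matrix-side subunit (chr9:57428456-57440678, plus strand), had 2431, 1501, 1693 and 2030 normalized counts in penk-/- mice and 3481, 2855, 2290 and 1940 in penk+/+ mice. The groups overlapped, with penk+/+ replicate 4 below a pair of penk-/- mice (1913 ± 408 and 2642 ± 675; log2 fold change -0.45, SE 0.20, limma adjusted p = 0.504). The fold change ran from -0.59 to -0.31 when a library was left out. Cox8a (chr19:7192515-7194997, minus strand), a small membrane subunit, had 9312, 7287, 7444 and 8573 against 11172, 9516, 8756 and 9132 (-0.24, SE 0.10, limma adjusted p = 0.492). Only penk-/- replicate 1 lay within the range of the other group. Cox6a1, the highest per kilobase, had -0.13 (SE 0.09). The rows higher in penk-/- chimeras were the low-level Cox8b (0.27, SE 0.50), Cox6b2 (0.10, SE 0.19) and Cox5b-ps (0.22, SE 0.18), the last of which is annotated as protein coding but named as a pseudogene.

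In complex V, 15 of the 18 nuclear genes were lower (median -0.06). This was 12 of 18 (median -0.03) without the libraries rich in Pbsn, and 9 of 18 (median -0.00, against 0.07 for all genes) when each library was scaled to its total. It was 11 of 18 (median -0.02) without penk+/+ replicate 1 and 12 of 18 (median -0.03) without penk-/- replicate 3, and the median reached -0.10 without penk-/- replicate 1. Atp5f1b, the catalytic beta subunit, was the highest nuclear gene of all 5 complexes per kilobase (12317 normalized counts). It had 56526, 54618, 51899 and 56519 normalized counts in penk-/- mice and 62389, 58760, 58367 and 56942 in penk+/+ mice. The groups did not overlap, although the nearest mice differed little (54890 ± 2187 and 59114 ± 2318; log2 fold change -0.11, SE 0.07, adjusted p = 0.674). Atp5f1c and Atp5f1d, the gamma and delta subunits of the central stalk, had -0.13 (SE 0.06) and -0.16 (SE 0.08). Atp5mc1, 1 of 3 genes for the c subunit of the rotor ring, had 0.14 (SE 0.10), and Atp5mk, a small membrane subunit, 0.08 (SE 0.08). With a library left out, Atp5mc1 ran from 0.04 to 0.20 and Atp5mk from 0.03 to 0.13.

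**Figure D4:**
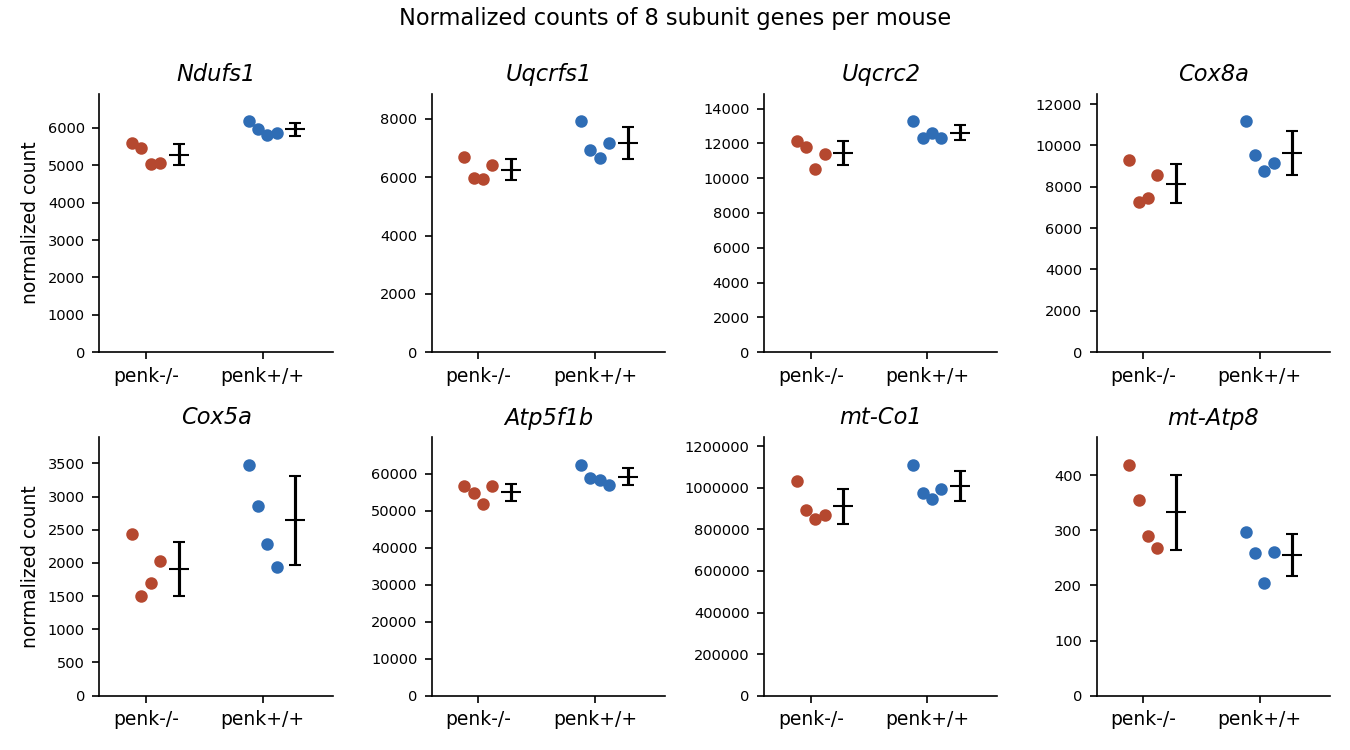
Normalized counts of 8 subunit genes, 1 point per mouse, with the mean and SD of each group (n = 4) beside the points and axes that start at 0. Ndufs1, Uqcrc2 and Atp5f1b show no overlap between the groups, and the other 5 genes do overlap.

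The tissue-restricted isoforms were at a low level beside their general counterparts in all but 1 of the pairs with values for both genes. Per kilobase of annotated exon, Cox4i1 had 3280 normalized counts and Cox4i2 18. Cox6a1 had 11881 and the muscle form Cox6a2 5.13. Cox6b1 had 3461 and the testis form Cox6b2 80.6. Cox8a had 9977 and the muscle form Cox8b 6.21. Ndufa4 had 314 and Ndufa4l2 21.8. Cox7b had 1901, and there was no value for Cox7b2, so this pair could not be compared. The exception was Cox7a1, known from heart and skeletal muscle, with 1139 per kilobase against 712 for Cox7a2. This order rests on the annotated exons of Cox7a2, which sum to 5914 bases against 603 for Cox7a1, while the mean normalized counts were 4210 for Cox7a2 and 687 for Cox7a1. The 5 restricted isoforms that were tested had fold changes within their standard errors: -0.27 (SE 0.41) for Cox4i2, 0.27 (SE 0.50) for Cox8b, 0.10 (SE 0.19) for Cox6b2, -0.13 (SE 0.15) for Cox7a1 and -0.19 (SE 0.41) for Ndufa4l2. Without the libraries rich in Pbsn, Cox4i2 had -0.79 and Cox7a1 0.05, neither with an unadjusted p below 0.05.

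Promoters were read for what the nuclear genes share beyond their names. The RefSeq windows used (build GRCm38.p6, 250 bases before to 50 after the start) matched 67 of the 85 genes, with 72 windows. Letters of the binding element of nuclear respiratory factor 1 (NRF1), GCGCATGC on either strand, were in 13.9% of the 72 windows and in 2.71% of all 32851 windows. Letters of the element of GABPA (nuclear respiratory factor 2), CCGGAAG on either strand, were in 22.2% and 8.86%. TATAAA on either strand was in 9.72% and 13.6%. The NRF1 letters were found in Ndufa6, Ndufa8 and Ndufa11 of complex I, Sdhb of complex II, Uqcrc1 and Uqcr11 of complex III, Cox6a1 of complex IV, and Atp5mc2, Atp5me and Atp5mg of complex V. One such stretch is shown for each complex that has it wholly before the start, with the 8 letters in capitals and 16 bases on either side. GCGCATGCGC holds the letters on both strands, and only 1 reading is then capitalised. The first capital lies at position -83 in Ndufa6 (chr15:82354351-82354390, minus strand), -54 in Sdhb (chr4:140961201-140961240, plus strand), -160 in Cox6a1 (chr5:115349095-115349134, minus strand) and -48 in Atp5me (chr5:108434424-108434463, minus strand), counted back from the start.
Ndufa6: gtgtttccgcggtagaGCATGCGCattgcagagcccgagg
Sdhb: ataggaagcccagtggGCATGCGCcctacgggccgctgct
Cox6a1: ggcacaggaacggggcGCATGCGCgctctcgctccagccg
Atp5me: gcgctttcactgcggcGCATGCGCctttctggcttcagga
A match is a description of these letters and not a measurement of binding. The factors themselves, given outside the rule for named genes, had log2 fold changes of 0.02 (Nrf1, SE 0.09) and -0.11 (Gabpa, SE 0.06).

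Among 11 nuclear regulators of mitochondrial genes, 7 were lower and 4 higher, and 1 in each direction had an unadjusted p below 0.05 (5.33% and 4.3% of all genes). The median was -0.08, and 0.01 (5 of 11 lower) without the libraries rich in Pbsn. Ppargc1a, the coactivator PGC-1 alpha that raises mitochondrial gene expression with energy demand, had 3416, 3585, 2850 and 3146 normalized counts in penk-/- mice and 4469, 3733, 4743 and 4099 in penk+/+ mice. Every penk-/- mouse lay below every penk+/+ mouse (3249 ± 322 and 4261 ± 440, SD, n = 4 each). The log2 fold change was -0.39 (SE 0.09). The adjusted p was 0.339 with limma and 0.324 with edgeR, and 0.0261 with DESeq2, which called 1.25% of the genes it tested. Pprc1, a related coactivator, went the other way with 1307, 1317, 1641 and 1387 against 991, 1074, 1270 and 1115 (0.34, SE 0.10, limma adjusted p = 0.358). It was named after its values were seen.

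The assembly factors, which help build the complexes but stay out of them, had 28 of 46 genes lower (median -0.03). Without penk-/- replicate 4, 23 of 46 were lower (median -0.01). Scaled to the library totals 20 of 46 were (median 0.03, against 0.07 for all genes). At an unadjusted p below 0.05, 3 assembly factors were lower and 2 higher (5.33% and 4.3% of all genes). Ndufaf8, a complex I assembly factor, had 432, 343, 421 and 435 normalized counts in penk-/- mice and 531, 553, 511 and 509 in penk+/+ mice, without overlap (-0.37, SE 0.09, adjusted p = 0.339 with limma, 0.328 with edgeR and 0.0363 with DESeq2). The genes for expression of mitochondrial DNA had 10 of 23 lower (median 0.03), or 12 of 23 (median -0.03) without the libraries rich in Pbsn, with 2 lower and 3 higher at an unadjusted p below 0.05 (5.33% and 4.3% of all genes). Fastkd5, which processes mitochondrial transcripts, had 187, 179, 198 and 189 against 147, 128, 142 and 149, higher in every penk-/- mouse (0.41, SE 0.10, adjusted p = 0.339 with limma and 0.064 with DESeq2). No gene of these lists had an adjusted p below 0.05 with limma.

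Of the genes of neighbouring pathways, most of those of the citric acid cycle, the carriers and glycolysis were lower, by small amounts (48.9% of all genes were lower). In the citric acid cycle 12 of 14 genes were lower (median -0.06), with fumarase Fh1 at -0.11 (SE 0.05) and no overlap between the groups. Among mobile carriers and exchangers 15 of 18 were lower (median -0.06), with cytochrome c, Cycs, at -0.23 (SE 0.10, limma adjusted p = 0.514). In glycolysis 13 of 15 were lower (median -0.10), 3 of them at an unadjusted p below 0.05 (5.33% of all genes), and phosphofructokinase Pfkp had 11899, 9225, 9315 and 10826 normalized counts against 13548, 12245, 12742 and 11925 (-0.30, SE 0.09, adjusted p = 0.388). In the mitochondrial ribosome 39 of 77 genes were lower (median -0.00; Mrps2, 0.22, SE 0.07), and among 96 genes named like cytosolic ribosomal proteins, a pattern that also takes in ribosomal S6 kinases, 30 were lower (median 0.02; Rpl7l1, 0.17, SE 0.05). Without the libraries rich in Pbsn, 10 of 14 genes of the citric acid cycle (median -0.05), 14 of 18 carriers (-0.05) and 11 of 15 of glycolysis (-0.07) were lower. Scaled to the library totals 7 of 14 (median 0.00), 8 of 18 (0.00) and 10 of 15 (-0.03) were, with 35% of all genes lower and their median at 0.07. After quantile normalization 7 of 14 genes of the citric acid cycle and 10 of 15 of glycolysis (median -0.01) were lower. The glycolysis median was -0.05 without penk-/- replicate 3. Of the 96 genes named like cytosolic ribosomal proteins, 8 were lower after quantile normalization (median 0.10). Without penk+/+ replicate 3, 48 of the 96 were (median -0.00). No difference between lists was tested.

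The epithelial markers, listed because epithelium makes up much of the colon, were set beside the nuclear subunit genes in each mouse. In bulk tissue, fewer cells of a type and less RNA per cell cannot be told apart. The 10 epithelial markers summed to 716252, 623647, 509645 and 657255 normalized counts in penk-/- mice and 779513, 667659, 645669 and 700684 in penk+/+ mice. The score of the 85 nuclear genes (mean centred log2) in the same mice was 0.05, 0.01, -0.10 and -0.08, and 0.14, -0.01, -0.06 and 0.03. penk+/+ replicate 1 was highest and penk-/- replicate 3 lowest in both. Of the 10 epithelial markers 9 were lower in penk-/- chimeras (median -0.19), none with an unadjusted p below 0.05, and none was at 0 in any library. Without penk-/- replicate 3, 8 of 10 were lower (median -0.09). Without both libraries rich in Pbsn 8 of 10 were lower too (median -0.08), and after quantile normalization 7 of 10 were (median -0.04). Krt8 was the most abundant, with a fold change of -0.15 (SE 0.12). Their part in the difference of the subunit genes was not tested.

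**Figure D5:**
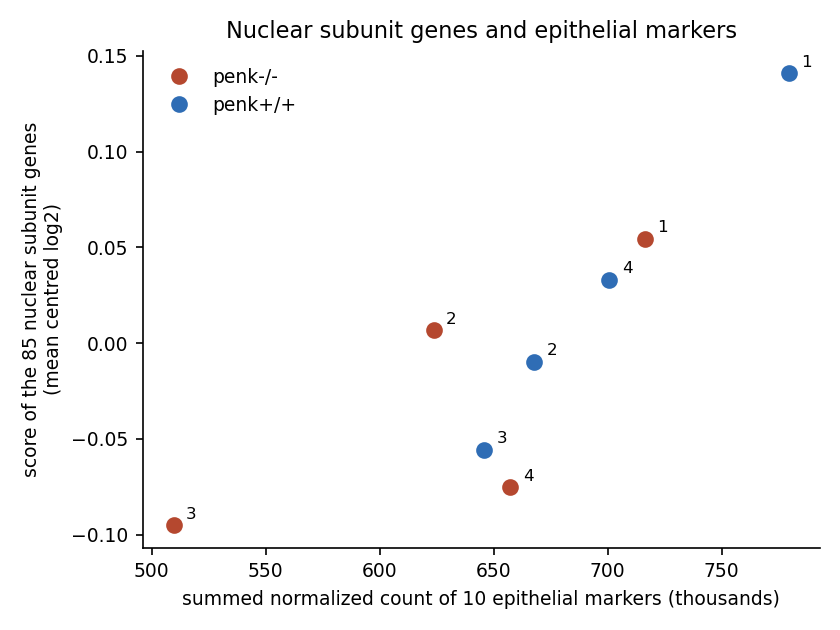
Score of the 85 nuclear subunit genes (mean log2 value, each gene centred on the 8 mice) against the summed normalized counts of 10 epithelial markers, 1 point per mouse with its replicate number. penk+/+ replicate 1 is highest and penk-/- replicate 3 lowest on both axes, and the groups overlap.

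Smooth muscle markers summed to 172941, 289410, 256747 and 236694 normalized counts, and 182235, 230085, 281518 and 202079 (median fold change 0.07, and -0.03 without the libraries rich in Pbsn), with Myh11 at 0.05 (SE 0.19). Adipocyte markers summed to 2316, 3033, 9982 and 1207, and 1873, 900, 1306 and 3666, so that both libraries rich in Pbsn were also the highest for fat. Their most abundant gene was Fabp4 (0.83, SE 0.55), all 8 were higher on average in penk-/- chimeras, none with an unadjusted p below 0.05, and Ucp1 was at 0 in 4 libraries. The median of the adipocyte markers fell from 0.91 to 0.28 (7 genes tested) without penk-/- replicate 3. Fabp4 ran from 0.28 to 1.23 with a library left out. Markers of hematopoietic cells, the compartment that carries the deletion, had 5 of 10 lower (Jchain, -0.59, SE 0.63), and those of enteric neurons and glia 7 of 10 (Nos1, -0.20, SE 0.12). With a library left out, Jchain ran from -1.19 to -0.13. The hematopoietic count was 3 without penk+/+ replicate 2 and 7 without penk-/- replicate 4. Of the neuron and glia markers, 4 of 10 were lower without penk-/- replicate 1 (median 0.05). Without the libraries rich in Pbsn 8 of 10 of them were (median -0.23). Skeletal muscle markers were low (Ckm, the most abundant, had a mean of 219; Myh4 and Myh1 were at 0 in some libraries), with 4 of 7 tested genes lower and Myh2 higher at an unadjusted p below 0.05 (0.66, SE 0.28, limma adjusted p = 0.501), and red blood cell genes had 4 of 5 lower (Hbb-bs, -0.26, SE 0.29). Without both libraries rich in Pbsn, 51 of the 85 nuclear subunit genes were lower (median -0.03), as were 45 when each library was scaled to its total (median -0.00, against 0.07 for all genes).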

How the data were processed

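The authors made stranded paired-end poly-A libraries, aligned the reads with STAR 2.7.8a to GRCm39 (Ensembl annotation), checked them with FastQC and normalized with DESeq2 1.30.0, partly per the submitters' processing notes. The values they deposited are a signal per gene and mouse, normalized counts (read counts divided by a size factor per library). The strand setting of the counting is not given in the sources used here. In each library 100% of values were whole multiples of 1 step (tolerance 0.001), which gave the reads per library. Over all genes, the 8 libraries differed by more than sampling noise (smallest chi-square per degree of freedom 11.2). Counting error was not separated from the spread between mice in single genes, and it weighs most in those with few counts.

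Names came from GENCODE M39 (25776 of 26008 genes). Genes with a mean of at least 10 (19127) were tested with limma 3.58.1 (lmFit, eBayes with trend, R 4.3.3) on log2(value + 1), so that fold changes of low genes are understated. The p-values measure the spread between 4 mice per group. edgeR 4.0.16 and DESeq2 1.42.0 on recovered reads, other pseudocounts, filters and scalings, a replicate block and left-out libraries were alternatives. Nuclear copies of mitochondrial DNA were found with minimap2 2.31. Levels per kilobase use merged annotated exons, which include rarely used ones. Of the nuclear genes, 45 are overlapped by another tested gene. Ndufab1, a complex I subunit, is missed by the naming rule.

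Genes named in the text are Penk, all mitochondrially encoded genes, in each complex the nuclear gene highest per kilobase and those with the 2 smallest p in each direction, both genes of each isoform pair, and in each list the gene with the smallest p or, for cell markers, the most abundant one. Other genes (such as Pprc1, Eef1b2, Ucp1, Myh2 and the pseudogenes Atp6-ps, Gm28661 and Gm28437) were named after their values were seen, or complete a complex. The genes and lists were chosen with earlier results of these data known.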

Additional observations from a re-analysis of the deposited data

Results flagged for a closer look

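Of 184 groups of 4 mice examined, 5 held a mouse whose gap to the nearest other mouse took more of the range of the group than Dixon's test allows for 4 values. Chance gives about 1 in 20 groups. mt-Nd3 had 197 normalized counts in penk-/- replicate 1 against 155 to 157 in the other penk-/- mice. The same mouse had a mean centred log2 score of 0.34 over the 6 mitochondrial genes inside the copied stretch, against -0.04 to 0.02 in the others of its group. Cox6b1 had 9319 normalized counts in penk+/+ replicate 1 against 7276 to 7582. Ndufa4l2 had 16.2 in the same mouse against 27.6 to 29.2 in the others. Ndufaf8 had 343 in penk-/- replicate 2 against 421 to 435.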

How the results depend on the processing

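No subunit gene had an adjusted p below 0.05 under any of the 20 alternatives. At an unadjusted p below 0.05, the count of 4 lower genes became 15 with a replicate block, 8 with DESeq2, 2 without a trend, 2 with library totals, 2 without both libraries rich in Pbsn (chosen after seeing the data), and 1 to 15 with a library left out (15 without penk-/- replicate 1, 1 without penk-/- replicate 2 or penk+/+ replicate 1, 2 without penk-/- replicate 3 or penk+/+ replicate 2). The single higher gene became 0 with a mean of at least 50, without a trend, with quantile normalization and without the Pbsn libraries. With library totals it became 3, where 35% of all genes were lower and their median was 0.07. It ran from 0 to 2 with a library left out. The share of all genes higher at that level was 4.3% in the main fit. It is not given for these settings, so these counts are not read as an excess. Over the whole table the count of 0 genes with an adjusted p below 0.05 became 1 with quantile normalization, 1 with the replicate block, 205 with DESeq2, and 0 to 6 with a library left out (6 without penk-/- replicate 1). The cause was not tested. Over all genes tested, the deviations of same-numbered mice from their group means correlated at 0.15, -0.04, -0.32 and -0.16. These values cannot tell whether mice of the same number were handled together, and the labels do not say. In the score of the nuclear genes, replicate 1 was the highest mouse of both groups (0.05 in penk-/- and 0.14 in penk+/+). The median of the nuclear genes stayed between -0.10 and -0.00. That of the mitochondrial genes ran from -0.08 to 0.06. The difference of the mitochondrial and nuclear medians was 0.20 with only the 6 genes inside the copied stretch and -0.01 with only the other 7. Of 1177 values of named genes under the alternatives, 47 had the opposite sign. With 4 mice per group, a median standard error of 0.08 (log2) limits what could be seen.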

Other observations

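Ndufab1, the acyl carrier protein that is also a subunit of complex I and whose name is missed by the rule, had 1948, 1676, 1739 and 1864 normalized counts in penk-/- and 1803, 1743, 1713 and 1617 in penk+/+ chimeras (log2 fold change 0.07, SE 0.07). The groups overlapped. Of the 13 pseudogenes that the naming rule matched and left out, Atp5pb-ps was the most abundant, with a mean of 49.6 normalized counts, and Ndufb4c had 18.7. The muscle isoform Cox6a2 ranged from 0 to 8.57 normalized counts over the 8 mice.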
